A study of Homo sapiens with 8 samples.

Results

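The clustered protocadherin locus of human chromosome 5 was examined CpG by CpG in embryonic stem cells that lack both de novo DNA methyltransferases. Its members were the CpGs at chr5:140160000-140895000 (genome build hg19) covered by at least 5 reads in every one of 8 libraries, which left 743 CpGs of 2060 listed there in any library and of 886094 such CpGs on all autosomes. Of these, 170 lay in the alpha subcluster (chr5:140160000-140395000), 190 in the beta subcluster (chr5:140425000-140630000) and 342 in the gamma subcluster (chr5:140705000-140895000), with 5 between alpha and beta and 36 between beta and gamma. The cells were HUES64, an established human embryonic stem cell line, with the source given as DNMT3A/3B DKO and the genotype spelled DMNT3A/3B knockout, read here as both genes disrupted, and were sampled at passages 6, 7, 8, 11, 13, 17, 27 and 28. Methylation was read by reduced representation bisulfite sequencing (RRBS), in which bisulfite-treated fragments rich in CpGs are sequenced, with 1 library at each passage. All 8 libraries carry the knockouts, no unedited HUES64 cells were analysed here, and it is not stated whether 1 culture or clone was followed through the passages. Every p-value below therefore measures only the scatter of these libraries around a trend with passage, which may be technical. Because DNA alone was measured, the cell type given in the labels was not checked against marker genes.

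Clustered protocadherins are cell-surface adhesion proteins that give neurons individual identities. In the alpha and gamma clusters each variable first exon has a promoter of its own and is spliced to constant exons shared by the cluster, whereas the beta genes have no shared constant exons. Neurons use only some of the variable promoters in each cell, and methylation of a variable promoter goes with its silence, while the C-type genes at the 3′ ends of the alpha and gamma clusters (PCDHAC1, PCDHAC2, PCDHGC3, PCDHGC4 and PCDHGC5) are used more broadly. DNMT3A and DNMT3B, the enzymes disrupted here, set methylation on unmethylated DNA, and DNMT1 copies it to the new strand after replication.

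No hg19 annotation was used here, so genes were located by sequence. RefSeq promoter sequences of build GRCh38.p14 (250 bases before to 50 after each start) exist for 47 of the 53 PCDHA, PCDHB and PCDHG genes in the RefSeq gene table. Each was slid along the locus until every CpG listed in the files fell on a CpG of the sequence, with at least 8 listed CpGs required and only 1 such position allowed. This placed 5 genes: PCDHAC1, PCDHAC2, PCDHGB6, PCDHGC3 and PCDHGC4. Among neighbouring genes that are no protocadherins, the search also placed TAF7. It placed none of 1725 promoter windows of chromosome 5 genes that do not neighbour the locus. The promoters of 4 of the 5 are shown because they hold member CpGs and sit in different methylation states in these cells. All 4 are on the plus strand, capitals mark the CpGs measured in all 8 libraries, and the letters are those of GRCh38.p14, of which only the listed CpGs were matched to hg19.
PCDHAC2 (chr5:140345811-140346110): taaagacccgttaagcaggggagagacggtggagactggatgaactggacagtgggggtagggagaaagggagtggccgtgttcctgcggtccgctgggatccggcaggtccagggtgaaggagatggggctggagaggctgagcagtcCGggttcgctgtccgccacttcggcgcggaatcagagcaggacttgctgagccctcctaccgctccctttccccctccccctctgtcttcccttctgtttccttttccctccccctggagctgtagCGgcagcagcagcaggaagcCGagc
PCDHGC3 (chr5:140855283-140855582): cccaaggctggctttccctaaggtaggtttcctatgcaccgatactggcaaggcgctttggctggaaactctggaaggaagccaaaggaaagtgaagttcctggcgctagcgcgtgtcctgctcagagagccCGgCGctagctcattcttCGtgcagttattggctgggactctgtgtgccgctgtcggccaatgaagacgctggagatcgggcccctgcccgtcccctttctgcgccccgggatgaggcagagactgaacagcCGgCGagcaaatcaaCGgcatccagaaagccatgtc
PCDHGC4 (chr5:140864491-140864790): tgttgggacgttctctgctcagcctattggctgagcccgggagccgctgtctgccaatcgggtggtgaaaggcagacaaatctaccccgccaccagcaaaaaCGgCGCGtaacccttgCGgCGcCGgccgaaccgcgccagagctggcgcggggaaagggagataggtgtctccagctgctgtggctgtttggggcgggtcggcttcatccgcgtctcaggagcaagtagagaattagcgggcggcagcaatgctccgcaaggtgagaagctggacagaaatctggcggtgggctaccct
PCDHGB6 (chr5:140787520-140787819): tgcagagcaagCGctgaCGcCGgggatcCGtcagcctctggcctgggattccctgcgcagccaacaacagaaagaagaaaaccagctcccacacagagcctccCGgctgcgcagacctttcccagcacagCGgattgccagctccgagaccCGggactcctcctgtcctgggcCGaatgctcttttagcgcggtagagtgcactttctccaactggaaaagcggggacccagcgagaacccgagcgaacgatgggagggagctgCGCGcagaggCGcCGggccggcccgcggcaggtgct

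The 3 C-type promoters were unmethylated at every passage. PCDHAC2, the last variable exon of the alpha cluster, had 0 methylated reads among 316 over its 3 measured CpGs in the 8 libraries, which allows a level of up to 0.949% (3 reads of the total). PCDHGC4 had 0 methylated reads among 731 over 6 CpGs, which allows up to 0.410%. PCDHGC3, the first C-type exon of the gamma cluster, had 1 methylated read among 658 over 6 CpGs, at passage 6. At this depth no change with passage was detectable in these promoters, since there was next to no methylation to lose. The RefSeq window of PCDHAC1 (chr5:140305634-140305933) held 8 listed CpGs but none with 5 reads in every library.

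PCDHGB6, a B-type gamma gene, was the one placed promoter with partial methylation. Its 12 measured CpGs averaged 24.7, 41.8 and 33.0% at passages 6 to 8, 38.1, 26.9 and 42.9% at passages 11, 13 and 17, and 20.9 and 32.0% at passages 27 and 28. The libraries were scattered without order, and those of passages 27 and 28 overlapped those of passages 6 to 8. The mean was 26.4% over passages 27 and 28 and 33.2% ± 8.55 (SD, n = 3) over passages 6 to 8. Pooled over CpGs, 112 of 425 reads were methylated at passages 27 and 28, a share whose 95% Wilson interval runs from 22.4 to 30.7%. Such intervals, and the limits from a count of 0, cover counting error only.

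Unlike the promoters at the C-type starts, their flanks held some methylation. Around these starts, the plot of single CpGs shows unmethylated CpGs for about 1 kb or more downstream. Past PCDHGC4 this rests on 1 member CpG at 50 to 1000 bases from either of its RefSeq starts. Beyond the unmethylated CpGs lay methylated ones that were lower at passages 27 and 28. Past PCDHAC1, 19 CpGs at 50 to 1000 bases and 8 CpGs at 1000 to 2000 bases were at 0% in all libraries but 1 (0.658% at passage 11 in the nearer group). At 2000 to 3000 bases its 3 CpGs averaged 39.9% at passages 27 and 28 and 77.1% ± 5.16 (SD, n = 3) at passages 6 to 8. The methylated flank of PCDHAC1 thus lay next to a stretch that had nothing to lose.

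Past PCDHGC3 the same order of levels was seen, with more CpGs. The 13 CpGs at 50 to 1000 bases averaged at most 2.20%, the value at passage 8. At 1000 to 2000 bases, 20 CpGs averaged 42.2, 48.2 and 50.4% at passages 6 to 8, 42.5, 41.3 and 32.0% at passages 11, 13 and 17, and 22.4 and 15.6% at passages 27 and 28. The 3 latest libraries were the 3 lowest. Past PCDHGC4, 5 CpGs at 1000 to 2000 bases from either of its RefSeq starts averaged 78.4% at passages 27 and 28 and 93.4% ± 2.50 (SD, n = 3) at passages 6 to 8. They stood at 72.0% at passage 27 and 84.8% at passage 28, against 83.0 and 85.2% at passages 13 and 17. The tile chr5:140866001-140867000, which overlaps this range, was not called in the tile test described below (fitted change -10.8 points, adjusted p = 0.0827, quasi-binomial F test). Past PCDHAC2, 5 CpGs at 1000 to 2000 bases averaged 5.47% at passages 27 and 28 and 11.3% ± 4.15 (SD, n = 3) at passages 6 to 8, so this flank was low from the start. Lower late levels were not particular to C-type flanks. Past the start in the PCDHGB6 window shown, 2 CpGs at 50 to 1000 bases averaged 39.0% at passages 27 and 28. They averaged 62.1% ± 8.27 at passages 6 to 8. Another 2 CpGs at 1000 to 2000 bases averaged 78.3% at passages 27 and 28 and 89.4% ± 18.4 at passages 6 to 8.

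**Figure D1:**
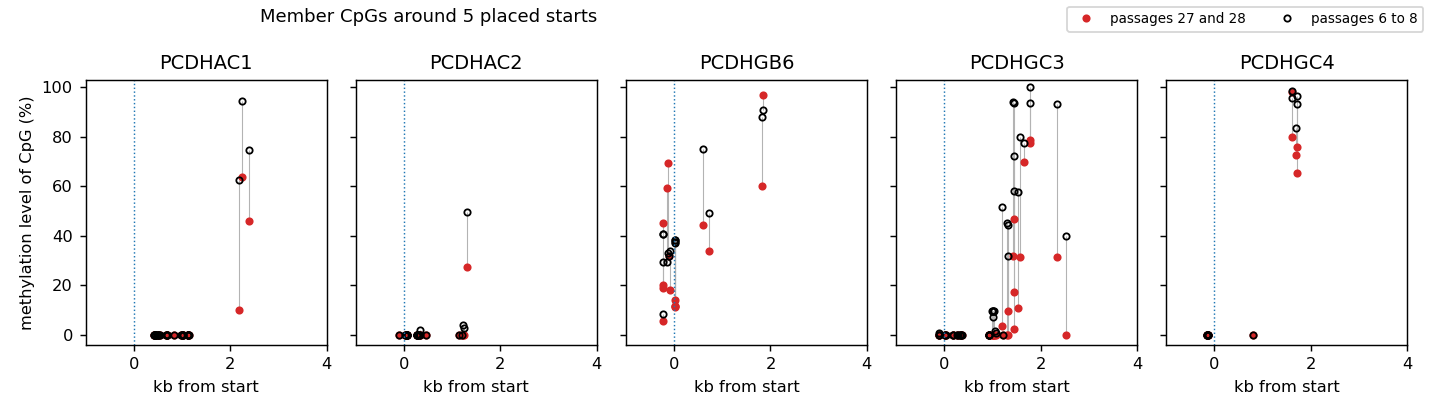
Methylation level of each member CpG (y axis, %) against distance from the placed start (x axis, kb, dotted line at 0) for 5 genes; filled red points are means of passages 27 and 28, open black points means of passages 6 to 8, joined by a line for each CpG. CpGs close to the 4 C-type starts lie at or near 0%, and those of PCDHGB6 are partly methylated. The methylated CpGs 1 to 3 kb past PCDHAC1 and PCDHGC3 were mostly lower at passages 27 and 28.

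Cut at the placed starts and ordered by RefSeq's gene order, the locus fell into methylated and unmethylated stretches. The 64 CpGs from the PCDHAC1 window to the end of the alpha subcluster averaged 8.51% at passages 27 and 28 and 12.0% ± 0.615 (SD, n = 3) at passages 6 to 8, and 84.4% of them started at 20% or less. Far past PCDHAC2 this stretch was little covered. Its tile chr5:140381001-140382000 (6 CpGs), whose middle lies 35439 bases past the PCDHAC2 start, averaged 0.612% at passages 6 to 8. The next tile, chr5:140385001-140386000 (3 CpGs), averaged 80.5%. Between chr5:140347001-140348000 and chr5:140381001-140382000 no tile held at least 3 member CpGs, so a continuous low stretch was not shown. The 104 CpGs from the PCDHGC3 window to the end of the gamma subcluster, which also hold the constant exons, averaged 13.3% at passages 27 and 28 and 20.1% ± 1.002 at passages 6 to 8, and 75% of them started at 20% or less. Starting levels here and below are means over passages 6 to 8. The A, B and beta stretches stood far higher.

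PCDHA1 to PCDHA13 (106 CpGs) averaged 71.5% at passages 27 and 28 and 75.5% ± 0.616 (SD, n = 3) at passages 6 to 8. The PCDHB genes (190 CpGs) averaged 81.3% at passages 27 and 28 and 85.2% ± 0.337 at passages 6 to 8. The PCDHGA and PCDHGB genes (238 CpGs) averaged 75.8% at passages 27 and 28 and 78.2% ± 0.519 at passages 6 to 8. In all 5 stretches the mean of the 2 late libraries lay below that of the 3 early ones by more than the SD of the early ones. Among the CpGs of high start (80% or more), the C-type stretches lost more: the mean fell by 16.02 points in the PCDHGC3 to PCDHGC5 stretch (16 CpGs) and by 15.7 points in the PCDHAC1 and PCDHAC2 stretch (4 CpGs). Against this, it fell by 2.16 points in PCDHA1 to PCDHA13 (71 CpGs), it fell by 2.24 points in the PCDHB genes (155 CpGs) and it fell by 2.31 points in the PCDHGA and PCDHGB genes (164 CpGs). The value of the PCDHAC1 and PCDHAC2 stretch rests on passage 28: its 4 CpGs stood at 90.9% at passage 27 and 70.6% at passage 28, against 96.4% ± 3.88 (SD, n = 3) at passages 6 to 8, so that at passage 27 alone the mean fell by 5.50 points. The 16 CpGs of the PCDHGC3 to PCDHGC5 stretch stood at 80.1% at passage 27 and 73.2% at passage 28, against 92.7% ± 3.11 at passages 6 to 8. They already stood at 82.4, 81.9 and 80.9% at passages 11, 13 and 17, so much of their fall came before passage 27. The 4 CpGs of the PCDHAC1 and PCDHAC2 stretch stood at 86.9, 88.3 and 91.5% at those passages. CpGs of high start were chosen on the libraries of passages 6 to 8 themselves, which can enlarge a fall from these libraries. These differences between stretches were not tested, and the C-type values rest on few CpGs.

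**Figure D2:**
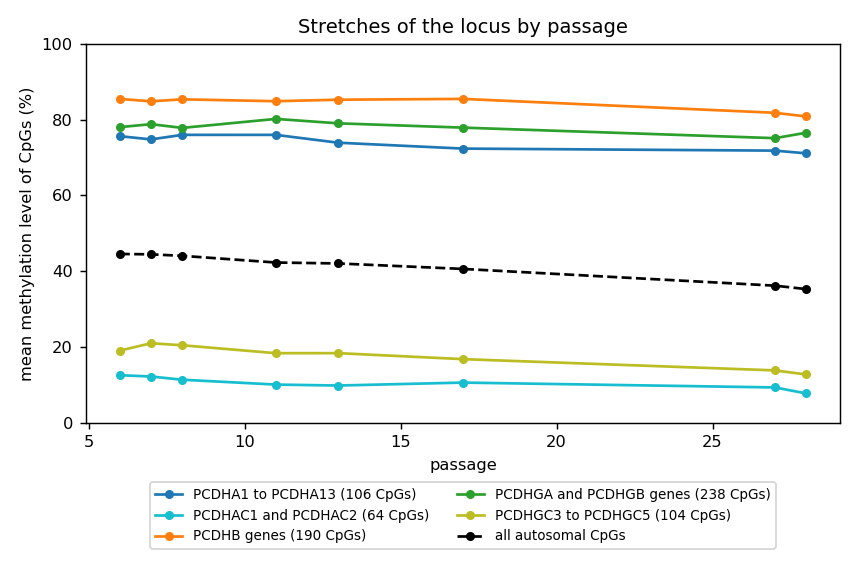
Mean methylation level of member CpGs (y axis, %) by passage (x axis) in 5 stretches of the locus and over all autosomal CpGs (dashed black line); each point is 1 library. The A, beta and A/B-type gamma stretches stay between 71.1 and 85.5%, the C-type stretches below 21.0%, and the autosomal mean falls to 35.3% at passage 28.

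Over the whole locus the mean level was 63.7, 64.0 and 63.8% at passages 6 to 8, 64.1, 63.4 and 62.6% at passages 11, 13 and 17, and 60.3 and 60.2% at passages 27 and 28. The level was nearly flat up to passage 13, and the 2 latest libraries were the lowest. The mean was 60.2% over passages 27 and 28 and 63.8% ± 0.125 (SD, n = 3) over passages 6 to 8, and the least-squares slope was -0.181 ± 0.0186 percentage points per passage (SE, n = 8). Over the same range, the 886094 autosomal CpGs averaged 35.7% at passages 27 and 28 and 44.4% ± 0.261 at passages 6 to 8, with a trend of -0.417 ± 0.0134 points per passage. The autosomal mean holds many more low CpGs, so it is no match for the locus, and tiles of like starting level are compared further on.

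The CpGs of the locus stood at 2 extremes. At passages 6 to 8, 428 CpGs (57.6%) stood at 80% or more and 202 (27.2%) at 20% or less. The first group averaged 93.1% at passages 27 and 28 and 95.9% at passages 6 to 8, and the second 1.02% at passages 27 and 28 and 1.28% at passages 6 to 8. The falls were larger between the extremes: 48 CpGs starting at 60 to 80% averaged 61.1% at passages 27 and 28 and 70.5% at passages 6 to 8, and 65 CpGs starting at 20 to 60% averaged 27.1% at passages 27 and 28 and 42.0% at passages 6 to 8. CpGs just on either side of the coverage minimum were of like level. The 178 members whose lowest coverage was 5 reads averaged 73.6% at passages 27 and 28 and 75.8% at passages 6 to 8. The 199 CpGs left out at a lowest coverage of 4 reads averaged 74.1% at passages 27 and 28 and 77.5% at passages 6 to 8. Both groups stood above the mean of all 743 members, 63.8% at passages 6 to 8, so level varied with coverage and the minimum was not neutral as to level.

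The 3 subclusters differed widely in level, and their mean trends over all member CpGs lay close together. Alpha averaged 47.8% at passages 27 and 28 and 51.6% ± 0.334 (SD, n = 3) at passages 6 to 8, and its slope on passage was -0.190 ± 0.0211 points (SE, n = 8). Beta averaged 81.3% at passages 27 and 28 and 85.2% ± 0.337 at passages 6 to 8, with a slope of -0.187 ± 0.0397 points per passage. Gamma averaged 56.8% at passages 27 and 28 and 60.6% ± 0.589 at passages 6 to 8, with a slope of -0.193 ± 0.0349 points per passage. In each subcluster both late libraries lay below all 3 early ones.

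Over all member CpGs, no difference in slope between subclusters passed the test. The difference was 0.00310 points per passage for alpha minus gamma (95% interval -0.113 to 0.119, two-sided exact permutation p = 0.942 over the orders of the 8 libraries). It was 0.00572 for beta minus gamma (95% interval -0.107 to 0.118, exact permutation p = 0.898) and -0.00262 for alpha minus beta (95% interval -0.128 to 0.123, exact permutation p = 0.949). Adjusted over the 6 differences of slope tested in the locus, all 3 p-values were 0.949 (Benjamini-Hochberg over exact permutation tests). With at least 10 reads required in every library, alpha minus gamma became -0.425 on 35 and 112 CpGs (exact permutation p = 0.00469) and beta minus gamma -0.181 on 39 and 112 CpGs (exact permutation p = 0.0294). Over passages 6 to 17 alone, alpha minus beta was -0.267 (exact permutation p = 0.00417). Among tiles starting at 80% or more, alpha minus beta was -0.241 (exact permutation p = 0.00345) and beta minus gamma 0.134 (exact permutation p = 0.0217), in a comparison added after seeing the data. The subclusters' trends thus differed under some choices of CpGs and passages.

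**Figure D3:**
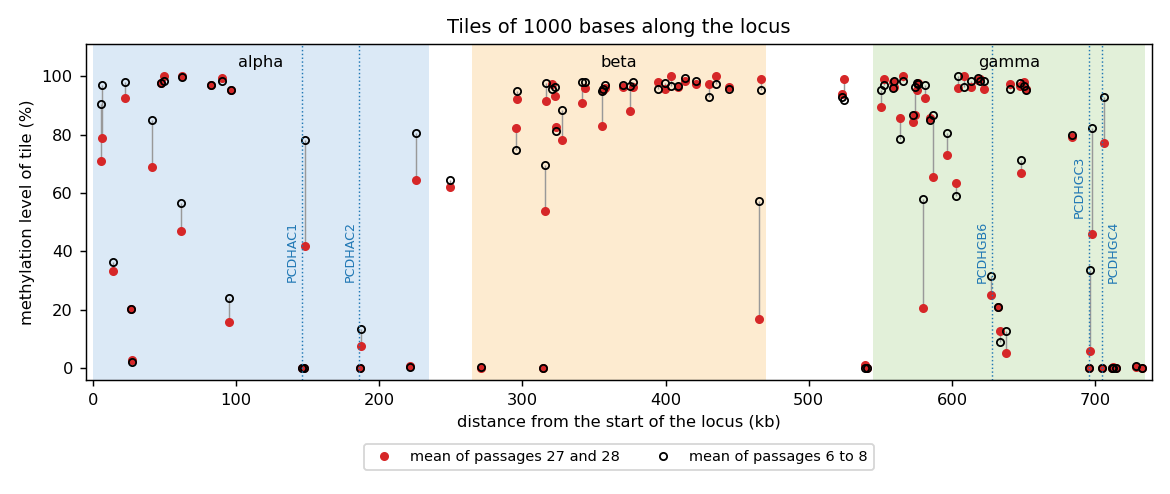
Methylation level (y axis, %) of the 98 tiles of 1000 bases with at least 3 member CpGs, against distance from the start of the locus (x axis, kb); filled red points are means of passages 27 and 28, open black points means of passages 6 to 8, joined by a line, with the subclusters shaded and the starts of the 5 placed genes dotted. Tiles lie mostly above 80% or at 0%, with few long falls scattered among tiles that hardly moved.

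Reads were then summed over tiles of 1000 bases. Member CpGs fell in 157 tiles, of which 98 held at least 3 (659 CpGs) and 59 held 1 or 2 (84 CpGs). A tile was tested only with at least 10 methylated and 10 unmethylated reads over all libraries, which 75 of the 98 reached. This leaves out tiles that stayed at either extreme: of the 23 not tested, 15 started under 10% and 8 at 80% or more, so shares of tested tiles overstate change in the locus. Of the 75, 10 fell and 1 rose past the threshold, an adjusted p below 0.05 and 10 points or more of fitted change between passages 6 and 28 (quasi-binomial logistic fit on passage, adjusted over all tested autosomal tiles).

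A smaller share of tiles fell in the locus than on all autosomes. The 10 falls are 13.3% of the tested tiles of the locus, and the background is 34.0% of 78387 tested autosomal tiles. The 1 rise stands against a background of 0.165%. Among tiles starting at 80% or more, 5 of 54 tested tiles of the locus fell (9.26%), against 25.2% of 36593 autosomal tiles. Among tiles starting at 10 to 80%, 5 of 19 fell (26.3%), against 47.5% of 36103. The median fitted change was -1.77 points over the 75 tiles and -9.21 points over all tested autosomal tiles. At an unadjusted p under 0.05 in the same fit, 18 of the 75 (24.0%) changed in either direction, against 43.4% of all tested autosomal tiles. Without the passage 27 library the falls numbered 6 of 72 tested (8.33%), against 29.2% of autosomal tiles in the same setting.

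By subcluster, 4 of 16 tested tiles fell in alpha, 2 of 24 in beta and 4 of 32 in gamma, where the 1 rise also lay. The largest changes were in tiles of few CpGs, and the plot of the called tiles by passage gives all 11. Named here are, in each subcluster, the 4 largest falls from passages 6 to 8, every called rise and the 3 steadiest tiles.

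In alpha the largest fall was in the tile chr5:140308001-140309000, which holds the 3 CpGs past PCDHAC1 described above. Its level was 84.4, 81.0 and 69.2% at passages 6 to 8, 75, 70.7 and 50% at passages 11, 13 and 17, and 48.1 and 35.6% at passages 27 and 28. The 3 latest libraries were the 3 lowest, and late and early libraries did not overlap. The fitted change was -42.7 points (adjusted p = 0.000153, quasi-binomial F test), and the call held without any 1 library. At the 5′ end of the cluster, chr5:140165001-140166000 (5 CpGs) averaged 71.0% at passages 27 and 28 and 90.3% ± 4.56 (SD, n = 3) at passages 6 to 8, a fitted change of -21.1 points (adjusted p = 0.00396, quasi-binomial F test). The call on this tile was lost without passage 27, and its fitted change over passages 6 to 17 was -7.54 points. The next tile, chr5:140166001-140167000 (4 CpGs), averaged 78.8% at passages 27 and 28 and 97.1% ± 5.04 at passages 6 to 8, a fitted change of -15.1 points (adjusted p = 0.0229, quasi-binomial F test). Its call was lost without passage 8, without passage 27, with limma on logit levels, on log2 of passage and without the limits on reads and dispersion, and over passages 6 to 17 its fitted change was 4.63 points. The last of the 4, chr5:140385001-140386000 (3 CpGs), averaged 64.6% at passages 27 and 28 and 80.5% ± 3.61 at passages 6 to 8 and was not called. The fourth call in alpha, chr5:140201001-140202000 (13 CpGs), lies outside the rule for named tiles and was chosen after its values were seen; it averaged 68.9% at passages 27 and 28 and 84.8% ± 8.55 at passages 6 to 8. The steadiest tiles, at 140207001, 140242001 and 140256001, moved by -0.299 to 0.163 points between the means of passages 6 to 8 and of passages 27 and 28, all from starting levels above 95%.

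In gamma, 2 called tiles lay just past PCDHGC3. The tile chr5:140856001-140857000 (20 CpGs) had 30.2, 35.2 and 35.8% at passages 6 to 8, 20, 17.6 and 14.02% at passages 11, 13 and 17, and 9.44 and 2.66% at passages 27 and 28. Every library from passage 11 on was below every earlier one. The fitted change was -28.0 points with at least 235 reads in each library (adjusted p = 3.66e-06, quasi-binomial F test). The next tile, chr5:140857001-140858000 (6 CpGs), had 83.0, 80 and 83.3% at passages 6 to 8, 73.4, 73.8 and 84.3% at passages 11, 13 and 17, and 49.6 and 42.1% at passages 27 and 28. The fall in this tile (fitted change -37.2 points, adjusted p = 3.55e-05, quasi-binomial F test) lay between passages 17 and 27, and over passages 6 to 17 the fitted change was -3.57 points. The neighbouring promoter tile, chr5:140855001-140856000 (14 CpGs), was at 0% at passages 27 and 28 and at 0.0754% ± 0.131 (SD, n = 3) at passages 6 to 8, and was not tested.

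A further gamma tile, chr5:140739001-140740000 (6 CpGs, no placed gene), had 61.4, 64.7 and 47.7% at passages 6 to 8, 54.8, 61.0 and 37.6% at passages 11, 13 and 17, and 19.3 and 22.3% at passages 27 and 28. Its 3 latest libraries were the 3 lowest, and the fitted change was -41.4 points (adjusted p = 1.62e-05, quasi-binomial F test). The tile chr5:140746001-140747000 (3 CpGs) averaged 65.5% at passages 27 and 28 and 86.5% ± 5.38 (SD, n = 3) at passages 6 to 8, a fitted change of -22.7 points (adjusted p = 0.0302, quasi-binomial F test), and lost its call without passage 6, without passage 28, with limma on logit levels (adjusted p = 0.0558) and on log2 of passage (adjusted p = 0.0513). The calls on the 2 tiles past PCDHGC3 and on chr5:140739001-140740000 held without any 1 library. Over passages 6 to 17 the fitted change was -18.6 points at chr5:140739001-140740000 and -5.45 points at chr5:140746001-140747000, and neither was called. The steadiest gamma tiles, at 140736001, 140811001 and 140843001, moved by -0.472 to 0.387 points. Of these, the tile at 140843001 averaged 79.2% at passages 27 and 28 and 79.7% ± 6.6 (SD, n = 3) at passages 6 to 8, with single libraries between 72.4 and 86.1%.

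The 1 rise was small. The tile chr5:140723001-140724000 (11 CpGs) had 71.6, 84.3 and 79.3% at passages 6 to 8, 83.7, 84.0 and 86.7% at passages 11, 13 and 17, and 87.4 and 83.9% at passages 27 and 28. Passage 6 was low and the other libraries lay close together. The fitted change was 10.1 points (adjusted p = 0.0415, quasi-binomial F test). It was 3.83 points without passage 6, and the call was also lost without passage 8, passage 17 or passage 27, with limma, with at least 10 reads required and without the limits on reads and dispersion.

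In beta both calls were lost without passage 27 and without passage 28. The tile chr5:140625001-140626000 (4 CpGs) had 57.0, 56.6 and 58.5% at passages 6 to 8, 60.9, 96.4 and 98.5% at passages 11, 13 and 17, and 21.3 and 12.8% at passages 27 and 28. Its level was thus steady to passage 11, high at passages 13 and 17 and low at passages 27 and 28, so it did not move in 1 direction. The fitted change was -42.1 points over all libraries (adjusted p = 0.0386, quasi-binomial F test) and 43.6 points over passages 6 to 17 (adjusted p = 0.00107, quasi-binomial F test). The call was lost without passage 7, 8, 11, 27 or 28 and under the same 3 other settings (limma, log2 of passage, no limits), with a fitted change of -22.1 points without passage 28. The tile chr5:140475001-140476000 (10 CpGs) averaged 54.0% at passages 27 and 28 and 69.6% ± 7.85 (SD, n = 3) at passages 6 to 8, a fitted change of -15.04 points (adjusted p = 0.0495, quasi-binomial F test), and lost its call without passage 7, 13, 27 or 28 and under those 3 settings. With at least 10 reads required in every library its fitted change was -8.92 points, and it was not called. The other 2 of the largest falls, at 140515001 and 140487001, were not called. Among the 24 beta tiles starting at 80% or more, 23 were still at 80% or more at passages 27 and 28, and the steadiest, at 140516001, 140530001 and 140568001, moved by -0.689 to -0.183 points.

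**Figure D4:**
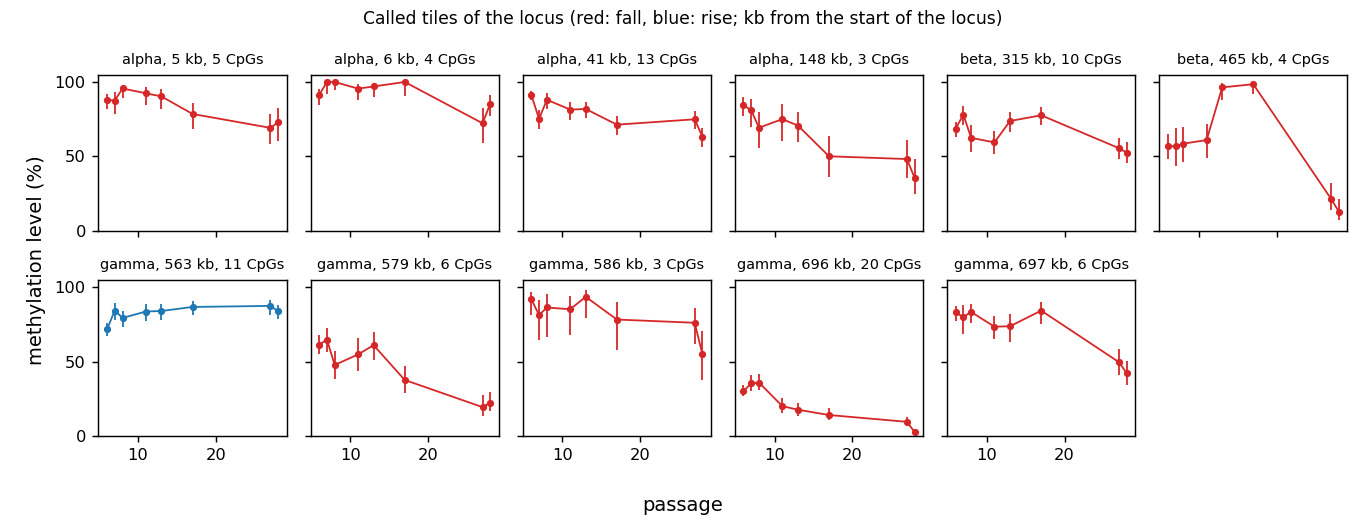
Methylation level (y axis, %) by passage (x axis) in the 11 called tiles of the locus, each titled with its subcluster, distance from the start of the locus and number of CpGs; points are single libraries with 95% Wilson intervals over reads. In all 10 falls (red) the lowest library is that of passage 27 or 28, the beta tile of 4 CpGs stands high at passages 13 and 17 before its low late values, and the 1 rise (blue) rests on a low passage 6.

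Unmethylated tiles were few outside the C-type stretches. Of 98 tiles, 17 started under 10%: 5 in alpha, 2 in beta, 8 in gamma and 2 between beta and gamma. Those outside the C-type stretches were at 140187001 in alpha, 140431001 and 140474001 in beta, 140793001 in gamma, and the 2 between beta and gamma. The last 2 include the tile of TAF7, which encodes a subunit of the general transcription factor TFIID and is no protocadherin. Its minus-strand promoter window (chr5:140700302-140700601) had 3 methylated reads among 1916 over 13 CpGs in the 8 libraries. The gamma tiles at 140871001, 140872001 and 140874001, with 15, 8 and 10 CpGs, lay inside the PCDHGC3 to PCDHGC5 stretch. They held no placed gene and were at 0 to 0.515% at passages 27 and 28 and at 0% at passages 6 to 8.

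Methylated tiles of the locus fell more slowly than other autosomal tiles of the same starting class. The 62 tiles starting at 80% or more averaged 95.1, 94.5 and 94.8% at passages 6 to 8, 94.1, 94.2 and 93.9% at passages 11, 13 and 17, and 91.6 and 91.3% at passages 27 and 28. The 37355 other autosomal tiles of this class averaged 89.3, 89.6 and 89.6% at passages 6 to 8, 87.0, 86.7 and 85.2% at passages 11, 13 and 17, and 79.7 and 78.2% at passages 27 and 28. The locus thus fell by 3.32 points and the other tiles fell by 10.53 points between the means of passages 6 to 8 and of passages 27 and 28, and most of the loss in the locus lay past passage 17. Here and in the classes below, tiles were chosen on passages 6 to 8 themselves. This can enlarge a fall from these libraries, and not equally in both sets. No slope without all 3 of these libraries was fitted. From passage 11 to passage 28 the mean went from 94.1 to 91.3% in the locus and from 87.0 to 78.2% in the other tiles.

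The slope was -0.159 ± 0.0149 points per passage in the locus and -0.506 ± 0.0269 in the other tiles (SE, n = 8). The difference was 0.347 ± 0.0220 (95% interval 0.293 to 0.4004, two-sided exact permutation p = 0.000223, adjusted p = 0.00067 over the 6 differences). It was 0.326 to 0.363 when each library was left out in turn, and 0.333 over passages 6 to 17 (exact permutation p = 0.0111). In the class starting at 60% or more, 69 tiles of the locus averaged 89.0% at passages 27 and 28 and 92.7% ± 0.152 (SD, n = 3) at passages 6 to 8, and 56847 other tiles averaged 70.5% at passages 27 and 28 and 83.5% ± 0.187 at passages 6 to 8. The difference of slopes was then 0.454 ± 0.0193 (exact permutation p = 7.44e-05, adjusted p = 0.000446).

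Within the class, tiles of the locus started higher than the others, so narrower classes were added after seeing the data. Among tiles starting at 95% or more, 48 of the locus averaged 95.5% at passages 27 and 28 and 97.1% ± 0.0789 (SD, n = 3) at passages 6 to 8, and 6664 others averaged 90.9% at passages 27 and 28 and 96.8% ± 0.506 at passages 6 to 8. The starting levels were then alike, and the difference of slopes was 0.2004 ± 0.0295 (exact permutation p = 0.000893, not adjusted). In the class from 90% upward the difference came to 0.271 ± 0.0281 (exact permutation p = 0.00057, not adjusted). The difference was thus smaller among tiles of closely matched starting level and in the same direction in each class.

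Among tiles starting at 80% or more, the CpG-dense tiles of the locus kept their mean level. Of the 62 tiles of the locus starting at 80% or more, 53 (85.5%) were still at 80% or more at passages 27 and 28, against 57.4% of the other autosomal tiles. The 18 tiles of this class in the locus with at least 20 listed CpGs averaged 96.6% both at passages 27 and 28 and at passages 6 to 8 (SD 0.334, n = 3), and all 18 were still at 80% or more. Of the 44 sparser tiles, 35 (79.5%) were, with a mean of 89.4% at passages 27 and 28 and 94.1% ± 0.504 at passages 6 to 8. Of the 3687 other dense autosomal tiles of this class, 72.5% were still at 80% or more, with a mean of 82.0% at passages 27 and 28 and 91.3% ± 0.108 at passages 6 to 8. In this dense class, added after seeing the data, the difference of slopes was 0.443 ± 0.0545 (exact permutation p = 0.000521, not adjusted). Among dense tiles starting at 95% or more it was 0.166 ± 0.0321, with 16 tiles of the locus and 950 others (exact permutation p = 0.00893, not adjusted). Single dense tiles of the locus did fall. Within the 18, chr5:140182001-140183000 (36 listed CpGs) averaged 92.4% at passages 27 and 28 and 98.0% ± 2.40 at passages 6 to 8. Its fitted change of -6.58 points (adjusted p = 0.0272, quasi-binomial F test) was too small for a call. Outside this class, the called tile chr5:140856001-140857000 (30 listed CpGs) went from 33.7 to 6.05%.

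Inside the locus, dense and sparse tiles starting at 60% or more were compared directly. The 18 dense tiles had a slope of -0.00714 ± 0.0268 points per passage. The 51 sparse tiles averaged 86.4% at passages 27 and 28 and 91.3% ± 0.316 (SD, n = 3) at passages 6 to 8, with a slope of -0.235 ± 0.0252. The difference, 0.228 ± 0.0496, passed the threshold (exact permutation p = 0.0163, adjusted p = 0.0326). It rested on passages 27 and 28: it was 0.188 without passage 27 and 0.222 without passage 28 (exact permutation p = 0.0635 in each case), and 0.0109 over passages 6 to 17 (exact permutation p = 0.914). Dense tiles also started higher than sparse ones. Among tiles starting at 80% or more, where the starting means were 96.6% for 18 dense and 94.1% for 44 sparse tiles, the difference was 0.214 (exact permutation p = 0.0194, not adjusted).

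**Figure D5:**
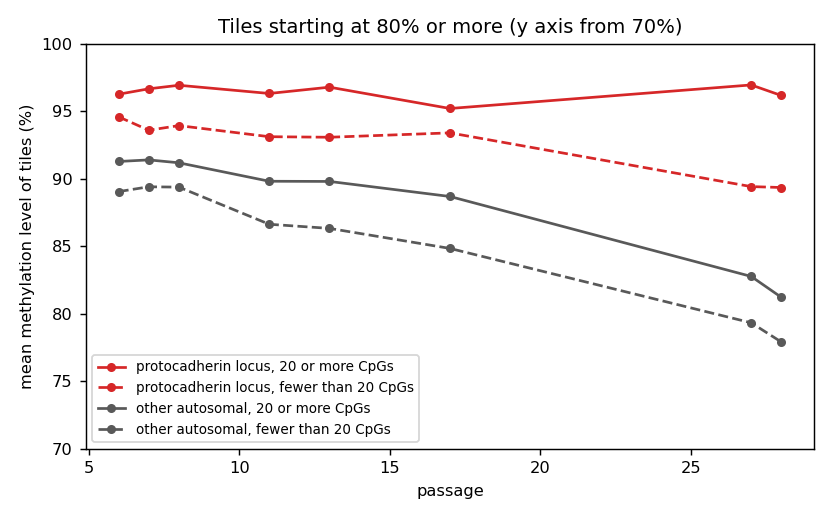
Mean methylation level (y axis, %, shown from 70%) by passage (x axis) of 1000-base tiles starting at 80% or more, for the locus (red) and other autosomal tiles (grey), split at 20 listed CpGs; each point is 1 library. Dense tiles of the locus stay between 95.2 and 97.0%, while dense tiles elsewhere fall to 81.2% at passage 28.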

How the data were processed

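RRBS data of 8 libraries were used. Per the submitters' processing notes, positions are those of genome build hg19. The deposited files give methylated and total read counts per CpG, and a deposited score that equals 1000 times the methylated share, rounded (checked on every line), which was not used further. The aligner, the caller, any coverage filter and any removal of duplicates are unstated (not given in the sources used here).

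Summed reads were lowest at passage 11 (19898423) and highest at passage 6 (44599588). Median coverage of the members was 25 at passage 6 and 11 to 16 elsewhere. Means give each CpG, or each tile, equal weight. Slopes were fitted by least squares on passage (Python 3.11.15, numpy 2.4.6, scipy 1.17.1), and differences of slope tested by two-sided exact permutation over all orders of the libraries, with a smallest possible p of 2.48e-05, and Benjamini-Hochberg adjustment over 6 differences. Tiles were fitted by quasi-binomial logistic regression with dispersion moderated by limma 3.58.1 (R 4.3.3) and not under 1, on every autosomal tile with at least 3 CpGs of at least 5 reads in every library. The fit was tested on simulated data. Named tiles were, in each subcluster, the 4 tested tiles with the largest fall from passages 6 to 8 to passages 27 and 28, the 3 with the smallest change among those starting at 60% or more, and every called rise. CpG density was the number of CpGs listed in any library per tile. Of 52 promoter windows of 47 genes, those of 5 genes were placed on hg19. The members and lists were chosen with earlier results of these data known.

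Alternatives were coverage minimums of 10 and 20 reads, an upper limit of coverage, omission of each library, passages 6 to 17, log2 of passage, limma on logit levels, no limit on reads or dispersion, tiles of 500 bases or of 1 CpG, pooled reads, and other density and level classes.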

Additional observations from a re-analysis of the deposited data

How the results depend on the processing

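The locus fell more slowly than other autosomal tiles under every alternative that could be fitted, and the comparisons below did not hold throughout. No paired analysis was possible because no passage was sampled by more than 1 library. With a minimum of 10 reads, alpha minus gamma was -0.425 and beta minus gamma -0.181 points per passage, with slopes of -0.540 in alpha, -0.296 in beta and -0.115 in gamma. With 20 reads, alpha minus gamma was -0.455 on 4 and 10 CpGs, and the slopes were -0.459 in alpha and -0.00332 in gamma. Over passages 6 to 17, alpha minus beta was -0.267 and the slopes were -0.250 in alpha, 0.0166 in beta and -0.0855 in gamma. Pooled reads gave -0.246 in alpha. Among tiles starting at 80% or more, beta minus gamma was 0.134 (exact permutation p = 0.0217) and alpha minus beta -0.241 (exact permutation p = 0.00345). Dense minus sparse was 0.196 with 10 reads (exact permutation p = 0.138) and 0.0109 over passages 6 to 17, and ranged from 0.188 to 0.241 with a library left out. Subcluster differences with a library left out ranged from -0.0491 to 0.0329 for alpha minus gamma, -0.0180 to 0.0544 for beta minus gamma and -0.0322 to 0.0104 for alpha minus beta.

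Falling tiles numbered 5 of 21 tested with 10 reads (23.8%, against 47.6% of autosomal tiles in that setting). They numbered 0 of 1 with 20 reads (quasi-binomial fit, 0 at an unadjusted p under 0.05, limma not run there), against 22.97% of autosomal tiles. They numbered 3 of 71 over passages 6 to 17 (4.23%, against 10.47%) and 6 of 75 on log2 of passage (8.00%, against 31.6%). With a library left out they numbered 6 to 10. Rising tiles numbered 0 with 10 or 20 reads, with limma and without the limits on reads and dispersion, 2 over passages 6 to 17 and with tiles of 1 CpG, and 0 to 1 with a library left out. Over passages 6 to 17 the fitted changes of the tiles at 140166001, 140475001 and 140625001 were 4.63, 5.72 and 43.6 points. At 20 reads no difference between classes of tiles gave a value, and tiles left untested by a setting have none. Apart from fewer CpGs or libraries, the cause of these changes was not tested. At 11 to 16 reads per CpG, levels of single CpGs are coarse.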
